A study of Mus musculus with 22 samples.

Results

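The 35 genes described here mark or steer blood vessels in inguinal white adipose tissue (IWAT), the subcutaneous fat pad that surrounds the mouse mammary gland. They were chosen by name and function from the 23420 genes counted, with earlier results of these data known. All 35 passed the filter on low counts that left 14458 genes for testing. They comprise 10 genes common to all endothelium, 4 VEGF receptors, 4 VEGF ligands, 4 members of the angiopoietin-Tie system, 3 Notch genes, 4 transcription factors, 5 genes of vessel state and the lymphatic surface protein Pdpn. RNA was sequenced from IWAT of 11 wildtype C57Bl/6 female mice, about 20 weeks old at injection. Of these, 5 lean mice had received a chow diet and 6 obese mice a high fat diet for 16 weeks. Each mouse carried syngeneic E0771 mammary cancer cells in Matrigel in its left pad (tumor-associated IWAT) and Matrigel with PBS alone in its right pad (control IWAT), so that control pads also came from tumor-bearing mice, and both pads were taken about 2 weeks later. The 22 libraries therefore form 4 groups, with n = 5 for each lean group and n = 6 for each obese group. Before extraction the inguinal lymph node was removed and a thin layer of fat next to the tumor discarded, and the tumor itself was not part of these samples.

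Endothelial cells line every vessel and, in fat, hand fatty acids from the blood to the adipocytes. VEGF-A, released by adipocytes and by tumor cells, acts through the receptor KDR on growth and permeability of blood vessels, while Notch signaling through DLL4 restrains the number of sprouting tip cells. Angiopoietin 1 (Angpt1) stabilizes vessels through the receptor TEK, and angiopoietin 2 (Angpt2), released by endothelium itself, mostly opposes it.

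Depth was 5759775 to 8598108 counts on genes per library, and levels below are CPM, these counts scaled to a common library size by the trimmed mean of M-values. The obese control libraries of mice 1 and 3 and the obese tumor-associated library of mouse 3 held RNA of lymph node high endothelial venules, 4 marker genes summing to above 5 CPM and up to 351 CPM against at most 1.49 CPM in a typical (median) library of any group. The obese tumor-associated libraries of mice 0, 2 and 4 had a sum of 10 proliferation genes above 1000 CPM, up to 2147 CPM, whereas the other groups reached at most 569 CPM. Results are therefore also given without these libraries where a call changed. CPM are relative to the whole library. In whole tissue, fewer cells of a type, less RNA per cell and more RNA from other cells therefore cannot be told apart.

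All 8 genes set as endothelial markers (Pecam1, Cdh5, Kdr, Tek, Tie1, Esam, Cldn5 and Emcn) were read in all 22 libraries. Any tissue with vessels gives this, so it does not show that the 35 genes report endothelium alone. Over all 35 genes the smallest raw count in any library was 3, for Prox1, followed by 6 for Esm1 and 20 for Vegfc. Per kilobase of exon, Vegfa was the most abundant member in lean control IWAT at 47.9 CPM per kb, ahead of Cdh5 (VE-cadherin, the junction protein of endothelium) at 37.9 and of the VEGF and semaphorin co-receptor Nrp1 at 35.5. Cldn5, a tight junction protein, led in obese control IWAT at 61.3 CPM per kb, followed by Pecam1 at 57.5 and Cdh5 at 55.1. In both kinds of tumor-associated IWAT Cdh5 came first, with 41.4 CPM per kb in lean and 37.1 in obese mice, and Nrp1 second with 39.4 and 35.3. Prox1, the master regulator of lymphatic identity, was the lowest member in each of the 4 groups, at 0.30 to 0.44 CPM per kb.

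Promoters from the RefSeq table (assembly GRCm38.p6) were found for 22 of the 35 genes, 29 start sites in all. The 6-letter core AGGAAG, bound by ETS factors such as the member Erg and searched on both strands of the 250 bases before each start, was present in 10 of these 29 (34.5%) and in 29.5% of all 32851 promoters in the table. The longer form CCGGAAG was in 0 of 29, against 6.91% of all. For hypoxia-inducible factors the core ACGTG was in 6.9% of the member promoters and 16.6% of all. For SOX factors such as Sox17, the letters AACAAT were in 10.3% and 9.42%. Of the letters searched for the zinc finger factors of endothelium, AGATAA, the shares were 6.9% and 9.99%. Forkhead letters, GTAAACA, were found in 3.45% and 3.17%. Each search covered both strands, and the only overlapping matches were those of ACGTG read on both strands in the promoter of Pdpn. The following windows belong to 4 members that are treated below because their levels moved in different directions, Cldn5 and Flt1 down and Eng and Esm1 up in obese tumor-associated IWAT. They end directly before the start of the gene, run 5′ to 3′ on the strand of the gene (plus for Cldn5, Eng and Esm1, minus for Flt1), and capitals mark AGGAAG or its reverse complement.
Cldn5, chr16:18776597-18776846: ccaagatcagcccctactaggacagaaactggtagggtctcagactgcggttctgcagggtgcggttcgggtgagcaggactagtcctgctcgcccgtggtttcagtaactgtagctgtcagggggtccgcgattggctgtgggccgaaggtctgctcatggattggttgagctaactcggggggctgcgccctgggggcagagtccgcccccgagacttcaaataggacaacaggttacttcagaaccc
Flt1, chr5:147726012-147726261: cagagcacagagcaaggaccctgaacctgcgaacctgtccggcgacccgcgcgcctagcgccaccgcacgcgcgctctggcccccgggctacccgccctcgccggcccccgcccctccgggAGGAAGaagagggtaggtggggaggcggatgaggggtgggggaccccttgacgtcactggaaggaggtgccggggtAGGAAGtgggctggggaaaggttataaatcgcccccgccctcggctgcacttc
Eng, chr2:32646345-32646594: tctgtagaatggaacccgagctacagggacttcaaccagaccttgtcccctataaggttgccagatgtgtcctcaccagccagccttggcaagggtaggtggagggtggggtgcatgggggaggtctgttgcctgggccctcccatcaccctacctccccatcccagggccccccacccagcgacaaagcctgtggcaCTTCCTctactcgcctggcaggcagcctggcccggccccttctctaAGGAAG
Esm1, chr13:113209409-113209658: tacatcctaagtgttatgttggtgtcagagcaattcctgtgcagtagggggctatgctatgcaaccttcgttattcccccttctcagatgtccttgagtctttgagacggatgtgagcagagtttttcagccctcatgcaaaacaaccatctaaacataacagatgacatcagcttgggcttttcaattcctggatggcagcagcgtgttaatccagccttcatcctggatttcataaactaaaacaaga
The Flt1 and Eng windows hold 2 matches each and those of Cldn5 and Esm1 none, so the letters were present in and absent from members of either direction.

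In lean mice, the comparison of the pads asks what a tumor does to the vessels of the nearby fat. Few of the 35 genes passed the test with all 4 groups in the fit: Eng and Esm1 rose and Vegfb fell in tumor-associated IWAT. These 3 are 8.57% of the members, and 4.18% of all genes tested were called in this comparison. With the lean groups fitted alone 10 members were called, higher Eng, Aplnr, Mmrn2, Pdpn, Pecam1, Plvap and Vwf and lower Vegfb, Vegfa and Kdr, while Esm1 was not (1.21, adjusted p = 0.0708). The 4.18% belongs to the fit of all 4 groups, and no share of all genes is given here for the lean groups alone. The median log2 fold change was 0.09 over the members and 0.01 over all genes.

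Eng encodes endoglin, a TGF-beta co-receptor of proliferating endothelium. In lean control IWAT its levels were 74.3, 71.4, 64.5, 70.0 and 77.1 CPM, and in tumor-associated IWAT of the same mice 121, 114, 89.4, 91.5 and 95 CPM (mice 0, 2, 3, 6 and 9 in this and all later lists). Every tumor-associated library lay above every control library, with means of 71.5 ± 4.78 and 102 ± 14.5 CPM (SD; log2 fold change 0.52, SE 0.145, adjusted p = 0.0471).

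Esm1, or endocan, is secreted by tip cells and tumor endothelium. It stood at 1.51, 1.05, 0.919, 1.76 and 1.19 CPM in the lean control pads and at 2.88, 2.8, 1.49, 2.06 and 6.02 CPM in the tumor-associated pads. It was higher in the tumor-associated pad of 5 of 5 mice, although the groups overlapped, and the highest value came from mouse 9 (log2 fold change 1.23, SE 0.324, adjusted p = 0.0354).

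Vegfb, a ligand of FLT1 and NRP1, went the other way, from 42, 38.3, 49.9, 45.1 and 33.4 CPM to 27.7, 23, 26.2, 31.7 and 29.8 CPM. The groups did not overlap (log2 fold change -0.59, SE 0.149, adjusted p = 0.0282). With the mouse as a block, Esm1 (1.13, adjusted p = 0.0673) and Vegfb (-0.59, adjusted p = 0.0509) lost the call and Eng alone was called.

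Each of these calls was lost in several of the fits that left out 1 library. Without lean control mouse 0, 3 or 6 or lean tumor-associated mouse 0 or 2, 0 members were called. It was 1 member without lean control mouse 2 or 9 or lean tumor-associated mouse 3 or 9, and 6 without obese tumor-associated mouse 4. Of the 22 fits that left out 1 library each, Eng was called in 5, those without lean tumor-associated mouse 6, obese control mouse 8 or obese tumor-associated mouse 1, 4 or 8 (adjusted p up to 0.178 in the others), and it lost the call with relative log expression or upper quartile scaling, with no filter (0.50, adjusted p = 0.0734), with at least 10 counts in every library (0.50, adjusted p = 0.0525) and without the lymph node libraries (0.50, adjusted p = 0.0528). Vegfb lost the call without lean control mouse 0, 3 or 6 or lean tumor-associated mouse 0, 2 or 3 (adjusted p up to 0.112), and Esm1 without any 1 of the lean control libraries or lean tumor-associated mouse 0, 2 or 9 (adjusted p up to 0.126) or with no filter (1.21, adjusted p = 0.0569). Without the 3 libraries of high proliferation, 8 members were called: the same 3, together with higher Pdpn (0.89, adjusted p = 0.00468), Plvap (0.80, adjusted p = 0.00795), Vwf (0.72, adjusted p = 0.00542) and Pecam1 (0.38, adjusted p = 0.0386) and lower Vegfa (-0.47, adjusted p = 0.0396). No share of all genes called is given here for that fit or for those that left out 1 library, so these counts show only how the calls shift.

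Among the 10 pan-endothelial genes 9 did not pass the test in lean mice. Pecam1, the platelet and endothelial adhesion molecule, was 165, 188, 178, 160.3 and 189 CPM in control and 261, 262, 217, 187 and 231 CPM in tumor-associated pads, higher in 5 of 5 mice but with 1 tumor-associated library, that of mouse 6, inside the control range (log2 fold change 0.40, SE 0.226, adjusted p = 0.429). Cdh5 was 133, 179, 163, 162 and 159 CPM in control and 192, 188, 152, 159 and 179 CPM in tumor-associated pads, with overlapping groups (log2 fold change 0.13, SE 0.235, adjusted p = 0.94). The sum of the 10 genes ran from 691 to 786 CPM in lean control and from 762 to 959 CPM in lean tumor-associated IWAT.

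The central VEGF pair did not pass the 4-group test in lean mice, but both were lower in the tumor-associated pad of 5 of 5 mice. Kdr, the main VEGF receptor, was 148, 196, 162, 177 and 165 CPM in control and 132, 135, 119, 140.4 and 120.2 CPM in tumor-associated pads, with no overlap between groups (log2 fold change -0.39, SE 0.22, adjusted p = 0.423). Vegfa was 175, 215, 215, 222 and 199 CPM in control and 139.9, 134, 155, 157 and 163 CPM in tumor-associated pads, again without overlap (log2 fold change -0.46, SE 0.149, adjusted p = 0.0976). With the lean groups fitted alone both were called, Kdr at -0.41 (adjusted p = 0.0152) and Vegfa at -0.47 (adjusted p = 0.00902). Of 10 adipocyte markers 10 had a negative log2 fold change between the same pads (median -0.59), 0 were called by edgeR, 2 had an unadjusted p under 0.05, and their sum of 14450 to 19056 CPM in control and 8945 to 16177 CPM in tumor-associated pads was lower in 5 of 5 mice. Their part in the values of Vegfa and Vegfb was not tested.

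Angpt2 was 21.4, 14.9, 16.7, 16.9 and 16.6 CPM in lean control and 20.9, 24.6, 19.4, 24.5 and 17.8 CPM in lean tumor-associated IWAT, and the groups overlapped (log2 fold change 0.31, SE 0.158, adjusted p = 0.358). Prox1 was low and scattered, with 4.88, 1.57, 2.14, 2.99 and 3.05 CPM in control and 3.33, 2.33, 4.08, 3.22 and 3.24 CPM in tumor-associated pads (log2 fold change 0.14, SE 0.627, adjusted p = 0.989). Pdpn, the podoplanin of lymphatic endothelium that is also made by fibroblasts and macrophages, was 24.2, 21.3, 22.7, 25.7 and 19.2 CPM in control pads and 44.7, 59.7, 36.3, 36.2 and 35.8 CPM in tumor-associated pads, with no overlap but short of the threshold (log2 fold change 0.91, SE 0.337, adjusted p = 0.153).

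Chosen after their values were seen, 2 genes of vessel state also separated the lean groups without passing the test. Plvap, which forms the diaphragms of fenestrated endothelium, was 26.5 to 42.9 CPM in control and 50.9 to 81.3 CPM in tumor-associated pads (log2 fold change 0.82, adjusted p = 0.148), and Vwf, the von Willebrand factor stored in endothelium, was 108 to 159 and 189 to 265 CPM (0.74, adjusted p = 0.253). Both were called with the lean groups fitted alone, Plvap with an adjusted p of 0.0151 and Vwf with 0.00766. Macrophage markers moved in the same libraries, with 8 of 10 higher and their sum at 624.8 to 1201 CPM in lean control and 1307 to 3095 CPM in lean tumor-associated IWAT, and 3 of 9 fibroblast markers were higher. Their part in the values of Pdpn and Eng was not tested.

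**Figure D1:**
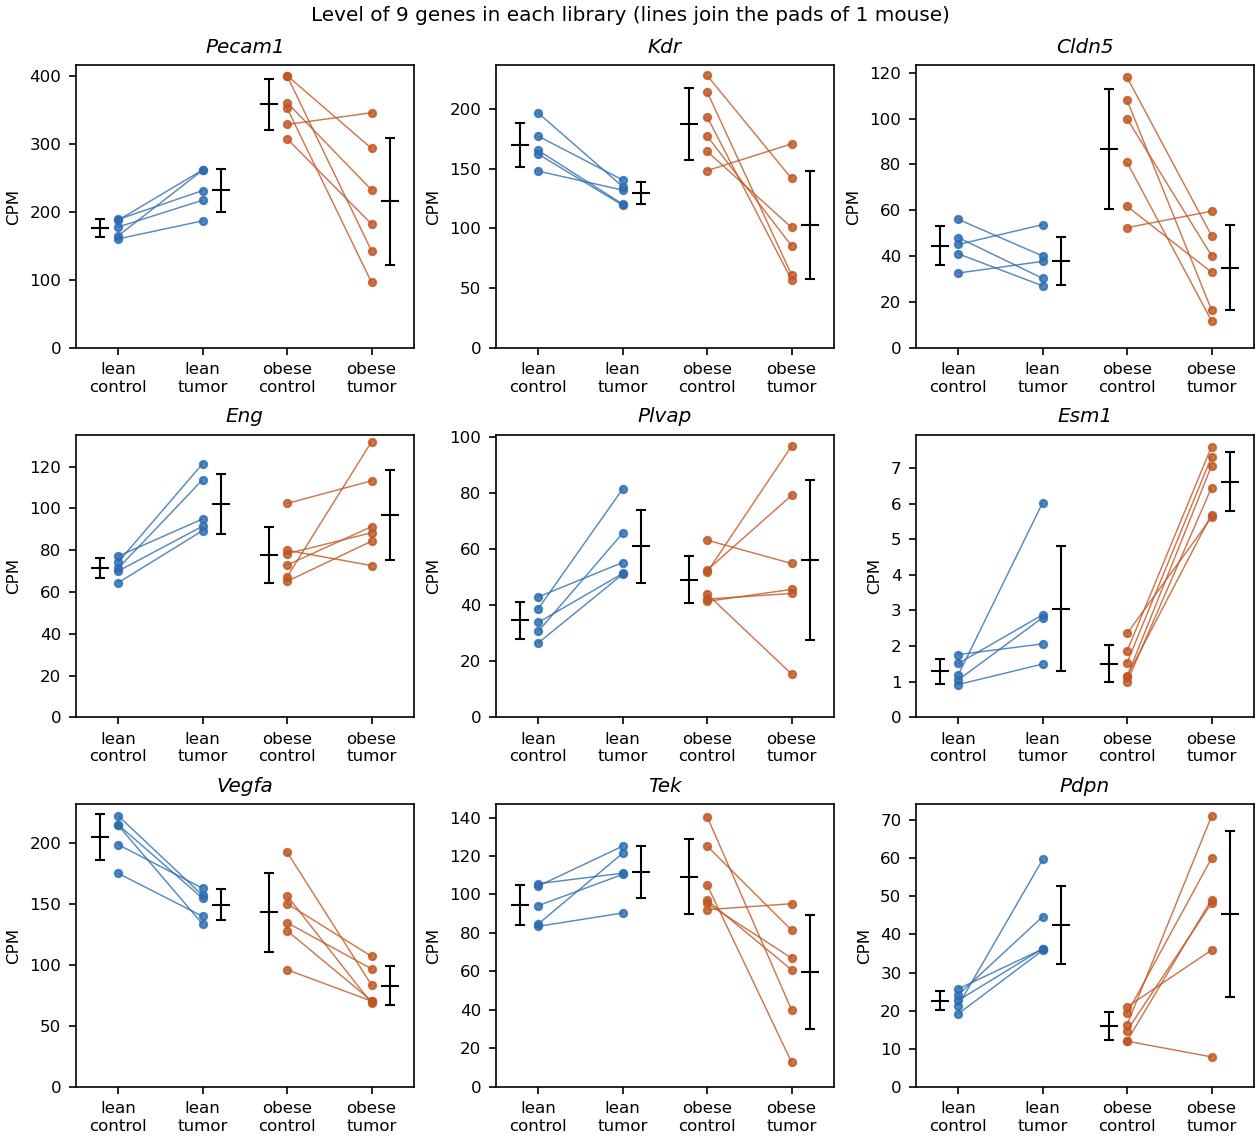
Levels of 9 of the genes in each of the 22 libraries, in CPM, with 1 panel per gene and the 4 groups along the horizontal axis. Points are libraries, lines join the 2 pads of 1 mouse and black bars give the mean ± SD; Pecam1, Kdr and Cldn5 are lower in the tumor-associated pad of 5 of the 6 obese mice, and Esm1 is higher in that of all 6.

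In obese mice 26 of the 35 genes differed between the pads, and 23 of these were lower in tumor-associated IWAT. This is 74.3% of the members, against 54.5% of all genes tested, of which 27.7% were lower and 26.8% higher. The genes that fell included junction proteins, VEGF receptors and ligands, Tie receptors, Notch genes and endothelial transcription factors. Esm1, Pdpn and Eng rose. The median log2 fold change of the members was -0.69, where that of all genes was -0.02.

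This fall differed strongly between mice. The median change of the 10 pan-endothelial genes, tumor-associated minus control pad on the log2 scale, was -1.91 in mouse 4, -1.34 in mouse 0, -0.69 in mouse 2, -0.50 in mouse 8 and -0.44 in mouse 3, but 0.38 in mouse 1. Of the 35 genes, 34 were lower in the tumor-associated pad of mouse 4 and 6 in that of mouse 1. In lean mice the same pan-endothelial median ran from -0.02 to 0.46.

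Other contents of these pads moved with the endothelial genes. Adipocyte markers were lower for 9 of 10 genes, their sum falling from 14370 to 25382 CPM in obese control to 2062 to 13419 CPM in obese tumor-associated IWAT, where mouse 4 was lowest and mouse 1 highest, and none was at 0. Proliferation genes were higher for 10 of 10, and their sum was lowest in mouse 1 (574 CPM) and highest in mouse 4 (2147 CPM). Luminal epithelial markers were lower for 9 of 10 (sum 408 to 1048 CPM in control and 194 to 525 CPM in tumor-associated pads), mammary basal markers for 3 of 4, B cell markers for 1 of 6 and skeletal muscle markers for 1 of 3. Macrophage markers were higher for 8 of 10 (1022 to 1341 and 1436 to 4053 CPM) and fibroblast markers higher for 3 and lower for 2 of 9. Of 6 T cell markers 0 were called by edgeR (1 at an unadjusted p under 0.05, 1 called by DESeq2) and the 1 blood marker tested was not called. The globin genes Hba-a1, Hba-a2 and Hbb-b1 were at 0 in all libraries, and none of the 4 lymph node venule genes passed the filter. Their part in the fall of the endothelial genes was not tested. Without the tumor-associated libraries of mice 0, 2 and 4, which had the highest proliferation sums, 15 members were called, 10 lower and 5 higher. The 54.5% of all genes belongs to the fit with these libraries, and no such share is given here without them.

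**Figure D2:**
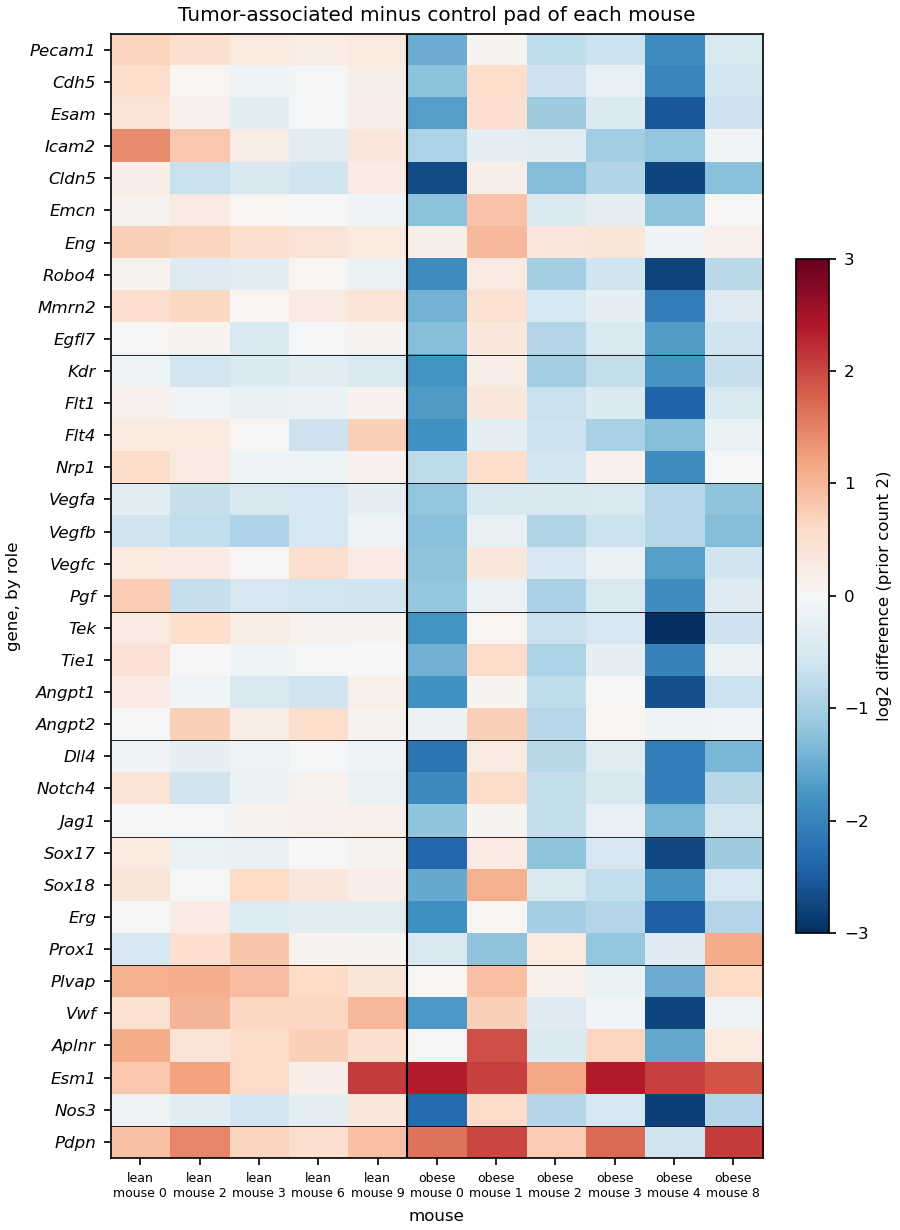
Within-mouse change of the 35 genes, log2 of tumor-associated over control pad, for 5 lean and 6 obese mice in columns, with genes in rows ordered by role and colors from -3 (blue) to 3 (red). The columns of obese mice 0 and 4 are blue throughout most rows while that of obese mouse 1 is mainly red, and the Esm1 row is red in all 11 mice.

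Of the 10 pan-endothelial genes 7 fell, Eng rose, and Emcn and Mmrn2 did not pass the test. Cldn5 ran from 52.4 to 118 with a median of 90.4 CPM in obese control IWAT and from 11.8 to 59.6 with a median of 36.6 CPM in obese tumor-associated IWAT. The tumor-associated libraries of mice 4 and 0 were lowest and that of mouse 1, at 59.6 CPM, lay inside the control range (log2 fold change -1.31, SE 0.305, adjusted p = 0.00147). Cldn5 was among the 10 genes that stayed lower without the 3 libraries of high proliferation (-0.89, adjusted p = 0.0176).

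Robo4, a receptor that keeps vessels tight, ran from 58.3 to 91.7 with a median of 81.4 CPM in control and from 13 to 70.4 with a median of 40.1 CPM in tumor-associated pads. It was lower in 5 of 6 mice, and the groups overlapped through mouse 1 (log2 fold change -0.97, SE 0.245, adjusted p = 0.00256). Pecam1 was from 308 to 401 with a median of 357 CPM in obese control pads and from 96.2 to 346 with a median of 207 CPM in tumor-associated pads. Only the tumor-associated library of mouse 1 reached the control range, and Pecam1 was lower in 5 of 6 mice (log2 fold change -0.73, SE 0.206, adjusted p = 0.00556), with the call lost without the high proliferation libraries (-0.31, adjusted p = 0.0654).

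Cdh5 ran from 185 to 280.3 with a median of 235 CPM in control and from 63.9 to 267 with a median of 149 CPM in tumor-associated pads. The groups overlapped through the tumor-associated libraries of mice 1 and 8 (log2 fold change -0.57, SE 0.215, adjusted p = 0.030). Without obese control mouse 0, 4 or 8 or obese tumor-associated mouse 0 the adjusted p of Cdh5 rose to at most 0.0653, and without the 3 high proliferation libraries it was 0.375 (log2 fold change -0.19).

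Eng was the exception. It ran from 65.1 to 102 with a median of 75.6 CPM in control and from 72.7 to 132 with a median of 89.8 CPM in tumor-associated pads and was higher in 5 of 6 mice, mouse 4 being the other (log2 fold change 0.32, SE 0.132, adjusted p = 0.0449). This call held in 8 of the 22 fits that left out 1 library each, those without lean control mouse 3 or 9, lean tumor-associated mouse 0, 3 or 6, obese control mouse 8 or obese tumor-associated mouse 3 or 4, and the adjusted p rose to at most 0.151 in the others. The call was also lost with upper quartile scaling, with no filter (0.32, adjusted p = 0.0575), with at least 10 counts in every library (0.29, adjusted p = 0.0718) and without the lymph node libraries (0.24, adjusted p = 0.174). Exons of Fpgs overlap those of Eng on the opposite strand, and since the strand setting of the counting was not given, their reads could not be told apart.

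The other pan-endothelial genes that fell were Esam, a junction adhesion molecule (log2 fold change -0.82), Egfl7, a secreted endothelial matrix protein (-0.69), and Icam2, an adhesion molecule for leukocytes (-0.59), all 3 without a call once the high proliferation libraries were left out. Exons of Agpat2, a gene of triglyceride synthesis in fat, overlap those of Egfl7 on the opposite strand, and reads of the pair could not be told apart. Icam2 also lost the call without the lymph node libraries (-0.41, adjusted p = 0.198) and without obese control mouse 1, 3 or 8 or obese tumor-associated mouse 0, 2, 3 or 4 (adjusted p up to 0.0753). Mmrn2, an extracellular ligand of endothelial CLEC14A, was just short of the threshold (-0.55, adjusted p = 0.051) and was called with the mouse as a block (-0.69, adjusted p = 0.0363). Emcn, a sialomucin of capillary and venous endothelium, had a log2 fold change of -0.30 (adjusted p = 0.215).

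Of the 4 VEGF receptors 3 fell. Kdr ran from 148 to 228 with a median of 185 CPM in obese control and from 56.8 to 171 with a median of 93 CPM in obese tumor-associated IWAT. It was lower in 5 of 6 mice, mouse 1 being the other, and the groups overlapped through its library (log2 fold change -0.87, SE 0.202, adjusted p = 0.00147). Flt1, which binds VEGF-A, VEGF-B and placental growth factor and partly acts as a decoy, ran from 95.2 to 148 with a median of 108 and from 27.6 to 120.1 with a median of 69.3 CPM, with the same exception (log2 fold change -0.76, SE 0.23, adjusted p = 0.00931).

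Flt4, the VEGF-C receptor of lymphatic and sprouting endothelium, ran from 14.1 to 22.7 with a median of 18.9 CPM in control and from 4.49 to 18.4 with a median of 10.7 CPM in tumor-associated pads. It was lower in 6 of 6 mice although the groups overlapped (log2 fold change -0.72, SE 0.267, adjusted p = 0.0286). The call was lost without obese control mouse 1 or obese tumor-associated mouse 0 or 4 (adjusted p up to 0.0571) and without the lymph node libraries (-0.58, adjusted p = 0.134), and both Flt1 (-0.33, adjusted p = 0.128) and Flt4 (-0.26, adjusted p = 0.358) lost it without the high proliferation libraries. Nrp1 had a log2 fold change of -0.31 (adjusted p = 0.271).

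All 4 VEGF ligands fell in obese tumor-associated IWAT and 3 of them, Vegfa, Vegfb and Pgf, were lower in 6 of 6 mice. Vegfa ran from 96.1 to 193 with a median of 143 CPM in control and from 68.6 to 107 with a median of 77.1 CPM in tumor-associated pads. The groups overlapped only through the control library of mouse 3 and the tumor-associated libraries of mice 1 and 2 (log2 fold change -0.79, SE 0.137, adjusted p = 1.45e-04).

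Vegfb ran from 22.1 to 34.5 with a median of 29.1 CPM in control and from 11.9 to 19.7 with a median of 15.1 CPM in tumor-associated pads. It was the only member that fell with no overlap between the groups (log2 fold change -0.87, SE 0.139, adjusted p = 6.51e-05), and both Vegfa (-0.78) and Vegfb (-0.86) kept their size and call without the high proliferation libraries. Pgf, the placental growth factor, ran from 5.01 to 15 with a median of 9.84 and from 3.8 to 6.34 with a median of 5.45 CPM and was lower in 6 of 6 mice (log2 fold change -0.92, SE 0.257, adjusted p = 0.00527). Vegfc, the lymphatic growth factor, had a log2 fold change of -0.57 (adjusted p = 0.0348), with the call lost without obese control mouse 0 or 8 or obese tumor-associated mouse 0, 3 or 4 (adjusted p up to 0.0882). Without the 3 high proliferation libraries neither Pgf (-0.88, adjusted p = 0.0518) nor Vegfc (-0.23, adjusted p = 0.379) was called.

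In the angiopoietin-Tie system both receptors and the stabilizing ligand fell, while Angpt2 did not pass the test. Tek ran from 92.1 to 141 with a median of 101 CPM in control and from 12.9 to 95.2 with a median of 63.9 CPM in tumor-associated pads. The tumor-associated library of mouse 4 was the lowest, at 12.9 CPM, and that of mouse 1 lay inside the control range (log2 fold change -0.87, SE 0.275, adjusted p = 0.0114). Tie1, the companion receptor of TEK, ran from 55.4 to 80.1 with a median of 73.6 and from 19.5 to 82.1 with a median of 43.5 CPM (log2 fold change -0.58, SE 0.227, adjusted p = 0.035), and its call was lost without any of obese control mice 0, 2, 4 and 8 and obese tumor-associated mice 0, 2 and 4 (adjusted p up to 0.0793).

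Angpt1 ran from 13.4 to 26.3 with a median of 20.7 CPM in control and from 3.11 to 16.1 with a median of 13.1 CPM in tumor-associated pads. It was lower in 4 of 6 mice, mice 1 and 3 being the others (log2 fold change -0.83, SE 0.265, adjusted p = 0.0127). Angpt2 ran from 23 to 31.6 with a median of 30.5 and from 17.1 to 37.6 with a median of 28.2 CPM, with mouse 2 lowest and mouse 1 highest in the tumor-associated pads (log2 fold change -0.06, SE 0.142, adjusted p = 0.751). Without the high proliferation libraries Tek was still called (-0.43, adjusted p = 0.0289), and Tie1 (-0.14, adjusted p = 0.517) and Angpt1 (-0.46, adjusted p = 0.0934) were not.

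All 3 Notch genes fell. Dll4, the tip cell ligand, ran from 25 to 51.3 with a median of 36.5 CPM in control and from 8.02 to 30.5 with a median of 19.5 CPM in tumor-associated pads (log2 fold change -1.02, SE 0.237, adjusted p = 0.00139), and exons of Gm14207 overlap its own on the opposite strand. Jag1, a ligand made by endothelium, mural and epithelial cells, ran from 111 to 179 with a median of 159.8 and from 59.9 to 129 with a median of 96.7 CPM (log2 fold change -0.64, SE 0.153, adjusted p = 0.00177), and Notch4, the endothelial receptor, from 34.9 to 68.9 with a median of 49.5 and from 16.2 to 51.2 with a median of 28.5 CPM (log2 fold change -0.84, SE 0.24, adjusted p = 0.00654). For each of the 3, mouse 1 was higher and the other 5 mice were lower in the tumor-associated pad, and Notch4 lost its call without the high proliferation libraries (-0.51, adjusted p = 0.123).

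Among the transcription factors, Erg and Sox17 fell. Erg, the ETS factor that maintains endothelial identity, ran from 29.3 to 41 with a median of 37.3 CPM in control and from 7.31 to 30.5 with a median of 17.2 CPM in tumor-associated pads, and the groups overlapped through mouse 1 alone (log2 fold change -1.05, SE 0.22, adjusted p = 6.84e-04). Sox17, a regulator of arterial fate, ran from 18.2 to 33.2 with a median of 24.8 and from 4.81 to 21.7 with a median of 11.5 CPM (log2 fold change -1.12, SE 0.267, adjusted p = 0.00179). Both kept the call without the high proliferation libraries, at -0.65 for Erg and -0.64 for Sox17. Sox18 had a log2 fold change of -0.61 (adjusted p = 0.123), and Prox1 ran from 0.614 to 9.62 with a median of 2.37 CPM in control and from 0.406 to 4.49 with a median of 2.7 CPM in tumor-associated pads, with the highest control values in mice 1 and 3, both lymph node libraries (log2 fold change -0.56, SE 0.571, adjusted p = 0.417). Without the lymph node libraries its log2 fold change was 0.60 (adjusted p = 0.407).

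Genes of vessel state split. Esm1 ran from 1.00 to 2.36 with a median of 1.34 CPM in obese control and from 5.61 to 7.6 with a median of 6.75 CPM in obese tumor-associated IWAT, higher in 6 of 6 mice and with no overlap (log2 fold change 2.12, SE 0.288, adjusted p = 1.76e-05). Its rise was also present in mouse 4, where 34 of the 35 genes were lower, and without the high proliferation libraries it was of the same size (2.10). Nos3, the endothelial nitric oxide synthase, ran from 28 to 71 with a median of 46.4 CPM in control and from 9.34 to 41.4 with a median of 24.8 CPM in tumor-associated pads, lower in 5 of 6 mice (log2 fold change -0.998, SE 0.299, adjusted p = 0.00839), a call lost without the high proliferation libraries (-0.48, adjusted p = 0.135). Exons of Atg9b overlap those of Nos3 on the opposite strand.

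Plvap (0.19, adjusted p = 0.576), Vwf (-0.47, adjusted p = 0.185) and the apelin receptor Aplnr (0.29, adjusted p = 0.453) did not pass the test in obese mice. Without the high proliferation libraries Plvap (0.64, adjusted p = 0.0137) and Aplnr (0.78, adjusted p = 0.0337) were called higher. Pdpn ran from 12 to 20.9 with a median of 15.5 CPM in control and from 7.85 to 71 with a median of 48.7 CPM in tumor-associated pads, higher in 5 of 6 mice. The exception was mouse 4, whose tumor-associated library at 7.85 CPM was below every control library (log2 fold change 1.51, SE 0.312, adjusted p = 5.91e-04).

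**Figure D3:**
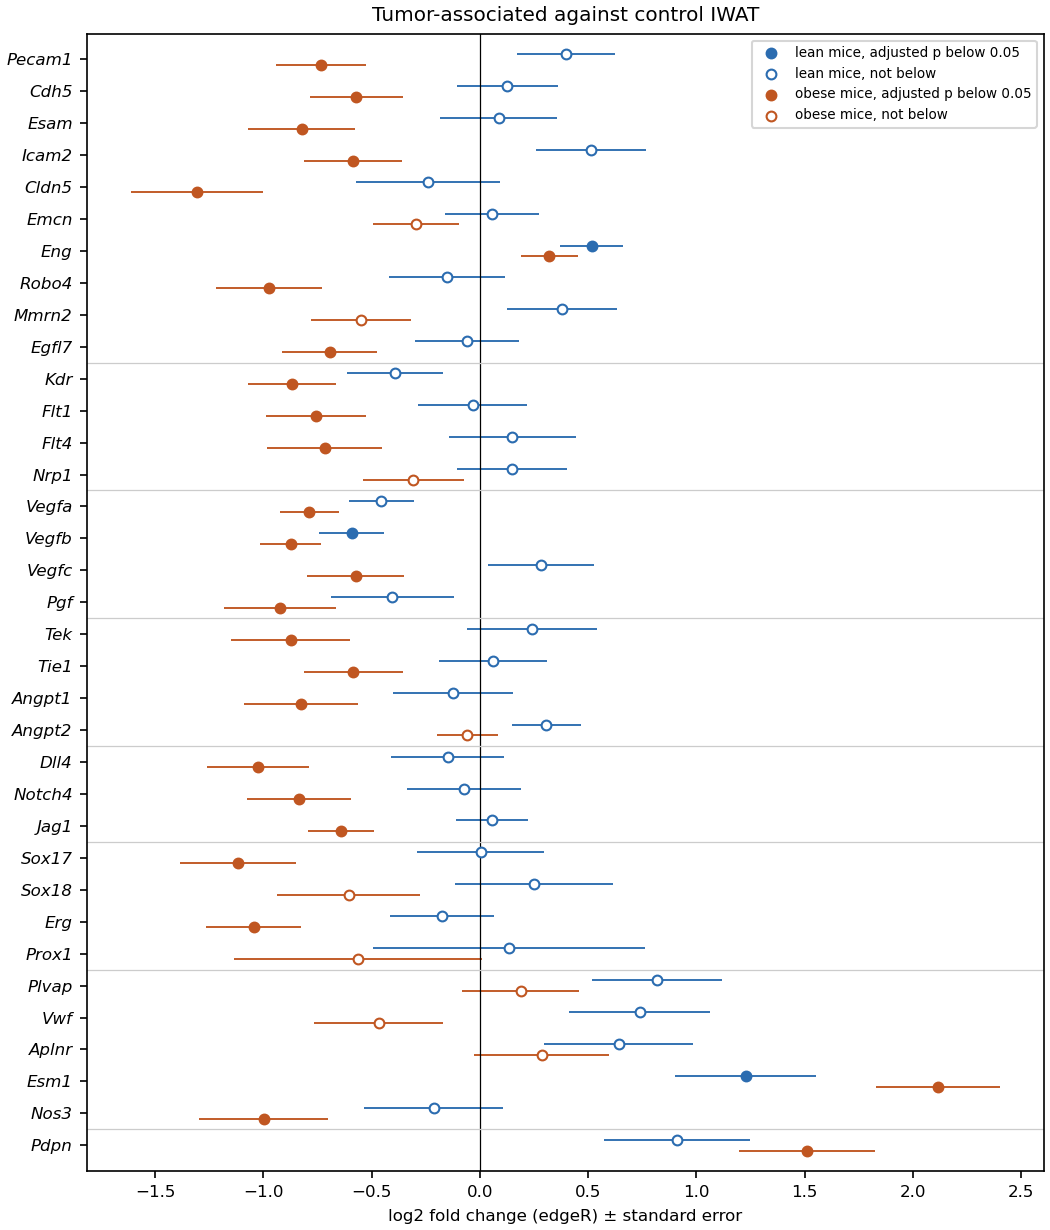
Log2 fold change of tumor-associated over control IWAT for each of the 35 genes by role, in lean and in obese mice, with bars of 1 SE and filled symbols at an adjusted p under 0.05. Lean values lie near 0 for most genes, and obese values lie below 0 for 30 of the 35. Esm1, Pdpn, Eng, Plvap and Aplnr are above 0 in both diets.

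Whether the response to the tumor differed between obese and lean mice was tested as the difference of the changes, obese minus lean. Since tumors were larger in the obese mice of this study, this difference cannot tell diet and tumor size apart. Of the 35 genes only Pecam1 passed, 2.86% of the members, where 4.92% of all genes did (2.58% higher, 2.34% lower). The change of Pecam1 was lower in obese mice by 1.13 on the log2 scale (SE 0.306, adjusted p = 0.0463), from 0.40 in lean to -0.73 in obese mice. The difference was negative for 33 of the 35 genes with a median of -0.70, against -0.04 over all genes, and 17 had an unadjusted p under 0.05. Over all 14458 genes tested, 7649 had a negative difference and 4760 an unadjusted p under 0.05. The pan-endothelial median was -0.87, that of the 4 transcription factors -0.86, of the 3 Notch genes -0.76 and of the VEGF ligands -0.43. Esm1 (0.89) and Pdpn (0.60) were the 2 genes with positive values, neither called.

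The number of members called for this difference changed with the library left out. Pecam1 was called in 6 of the 22 fits that left out 1 library each, those without lean tumor-associated mouse 6, obese control mouse 2 or obese tumor-associated mouse 1, 3, 4 or 8, and its adjusted p was at most 0.0897 in the rest. Without obese tumor-associated mouse 1, 17 members were called, 3 without obese tumor-associated mouse 4 or 8, and 2 without lean tumor-associated mouse 6. Without the high proliferation libraries 0 were (Pecam1 -0.69, adjusted p = 0.0897), and with the lymph node libraries left out 2 were, Pecam1 (-1.17) and Jag1 (-0.84). The share of all genes called in these fits is not given here, so the counts show only how the calls shift.

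Between control pads, part of the endothelial genes stood higher in obese than in lean mice. All of these mice carried a tumor, and since tumors were larger in the obese mice of this study, diet and tumor size cannot be told apart in either comparison between diets. Of the 35, 8 were higher and 3 lower in obese than in lean control IWAT, 31.4% of the members against 17.1% of all genes (9.54% higher, 7.53% lower). The higher genes were the pan-endothelial Pecam1, Icam2 and Cldn5, the Notch genes Dll4 and Notch4, the factors Sox17 and Erg, and Angpt2. Lower were Vegfa, Vegfb and Angpt1. The median log2 fold change was 0.43 for the members and 0.04 for all genes. The comparison shares the obese control libraries with that of the obese pads, so that the higher values here and the falls there are not independent of each other.

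Pecam1 was 176 ± 13 CPM in lean and 358 ± 37.5 CPM in obese control pads (SD), and the lowest obese library, at 308 CPM, was above the highest lean one at 189 CPM (log2 fold change 1.03, SE 0.22, adjusted p = 0.00322). Icam2 was 8.6 ± 1.93 and 17.6 ± 3.27 CPM, also without overlap (log2 fold change 1.04, SE 0.245, adjusted p = 0.00624). Cldn5 was 44.6 ± 8.66 and 86.8 ± 26.2 CPM, its groups overlapping through mouse 1 of the obese group (log2 fold change 0.96, SE 0.32, adjusted p = 0.0429).

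Dll4 (0.80, adjusted p = 0.0314), Notch4 (0.79, adjusted p = 0.0364), Sox17 (0.88, adjusted p = 0.0372) and Erg (0.81, adjusted p = 0.0202) were of similar size. Cldn5 was called in 11 of the 22 fits that left out 1 library each, and it lost the call, with an adjusted p of at most 0.105, without any 1 of the lean control libraries, lean tumor-associated mouse 0 or 3 or obese control mouse 0, 2, 4 or 8. Dll4 (adjusted p up to 0.0763), Notch4 (up to 0.0859) and Sox17 (up to 0.0850) lost it without lean control mouse 0, 3 or 6 or obese control mouse 0, 4 or 8, Dll4 also without lean control mouse 9, and Notch4 and Sox17 without lean control mouse 2. Erg lost it without lean control mouse 2 (adjusted p = 0.0524). In all, 7 members were called without lean control mouse 0, 2, 3 or 6 or obese control mouse 0, 4 or 8. No share of all genes called is given here for the fits that left out 1 library.

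Angpt2 was 17.3 ± 2.42 CPM in lean and 29 ± 3.31 CPM in obese control pads, and Angpt1 49.6 ± 6.36 and 19.8 ± 4.63 CPM. The first rose (log2 fold change 0.75, SE 0.152, adjusted p = 0.00221) and the second fell (log2 fold change -1.32, SE 0.269, adjusted p = 0.00211), each without overlap between the diets. Vegfa was 205 ± 18.9 and 143 ± 32.2 CPM (log2 fold change -0.52, SE 0.142, adjusted p = 0.0159), and Vegfb 41.7 ± 6.31 and 28.6 ± 5.15 CPM (log2 fold change -0.55, SE 0.142, adjusted p = 0.012). Without the lymph node libraries Vegfa (-0.40, adjusted p = 0.0592) and Vegfb (-0.41, adjusted p = 0.0728) were not called.

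With upper quartile scaling 7 members were called between control pads, 4 higher and 3 lower, with Cldn5, Dll4, Notch4 and Sox17 lost. Cldn5 also lost the call with no filter (adjusted p = 0.0515) and with at least 10 counts in every library (0.0506). Skeletal muscle markers stood at 14.0 to 2458 CPM in obese control pads, with a median of 24.7 CPM and the highest value in mouse 1. In lean control pads they stood at 3.5 to 10.4 CPM. Of 10 adipocyte markers 1 was higher and 1 lower. Luminal epithelial markers were lower for 4 of 10, all 10 with a negative log2 fold change (median -0.96) and sums of 408 to 1048 CPM in obese and 1010 to 1719 CPM in lean control pads, and 1 of 4 mammary basal markers was lower. Of the other lists, 2 of 10 macrophage and 1 of 6 T cell markers were higher, and mural cell genes were higher for 2 and lower for 1 of 12. The part of other tissue in the endothelial difference was not tested.

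Between tumor-associated pads the pattern of the diets was another. Of the 35 genes 9 were called, 2 higher and 7 lower in obese mice, 25.7% of the members against 47% of all genes (24.7% higher, 22.4% lower). None of the 10 pan-endothelial genes passed this test, with log2 fold changes from -0.38 to -0.06, and none of the 4 VEGF receptors did. In these 14 genes 0 had an unadjusted p under 0.05 in edgeR and 0 were called by DESeq2. Pecam1, for example, was 232 ± 31.7 CPM in lean and 215 ± 93.8 CPM in obese tumor-associated pads, with a range of 96.2 to 346 CPM in the latter (log2 fold change -0.10, SE 0.215, adjusted p = 0.709).

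Angpt1 was 45.5 ± 10.8 CPM in lean and 11.1 ± 4.93 CPM in obese tumor-associated pads, the largest log2 fold change among the members in this comparison (log2 fold change -2.03, SE 0.275, adjusted p = 2.04e-05). Every obese library was below every lean one. Vegfa (log2 fold change -0.85, SE 0.143, adjusted p = 1.16e-04) and Vegfb (log2 fold change -0.83, SE 0.145, adjusted p = 1.65e-04) were also lower in the obese mice, and so were Tek (-0.91), Nos3 (-0.96), Vwf (-0.82) and Jag1 (-0.55).

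Esm1 was 3.05 ± 1.76 CPM in lean and 6.62 ± 0.84 CPM in obese tumor-associated pads, overlapping through mouse 9 of the lean group (log2 fold change 1.12, SE 0.29, adjusted p = 0.00377). Angpt2 was 21.4 ± 3.03 and 27.9 ± 6.51 CPM (log2 fold change 0.38, SE 0.15, adjusted p = 0.0424) and was called in 13 of the 22 fits with 1 library left out, and not without lean tumor-associated mouse 0, 3 or 9, obese control mouse 3 or obese tumor-associated mouse 0, 1, 3, 4 or 8 (adjusted p up to 0.121), nor with upper quartile scaling, with no filter (0.39, adjusted p = 0.0553), with at least 10 counts in every library (0.34, adjusted p = 0.0785) or without the lymph node libraries (0.37, adjusted p = 0.0629). Vwf lost the call without lean tumor-associated mouse 0, 2 or 9 or obese tumor-associated mouse 0 (adjusted p up to 0.0770). Jag1, Nos3 and Vwf were not called once the high proliferation libraries were left out. Markers of other cells differed between the same pads. Luminal epithelial markers were lower in obese mice for 10 of 10 (median log2 fold change -2.61), with sums of 194 to 525 CPM in obese and 950.2 to 1992 CPM in lean pads, and mammary basal markers for 4 of 4 (-2.63). Proliferation genes were higher for 10 of 10 (2.53), with sums of 574 to 2147 CPM and 173 to 569 CPM, and macrophage markers for 4 of 10. Fibroblast markers were lower for 4 of 9, adipocyte markers for 3 of 10 and mural cell genes for 3 of 12. Their part in the values of Jag1 and the other called members was not tested.

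**Figure D4:**
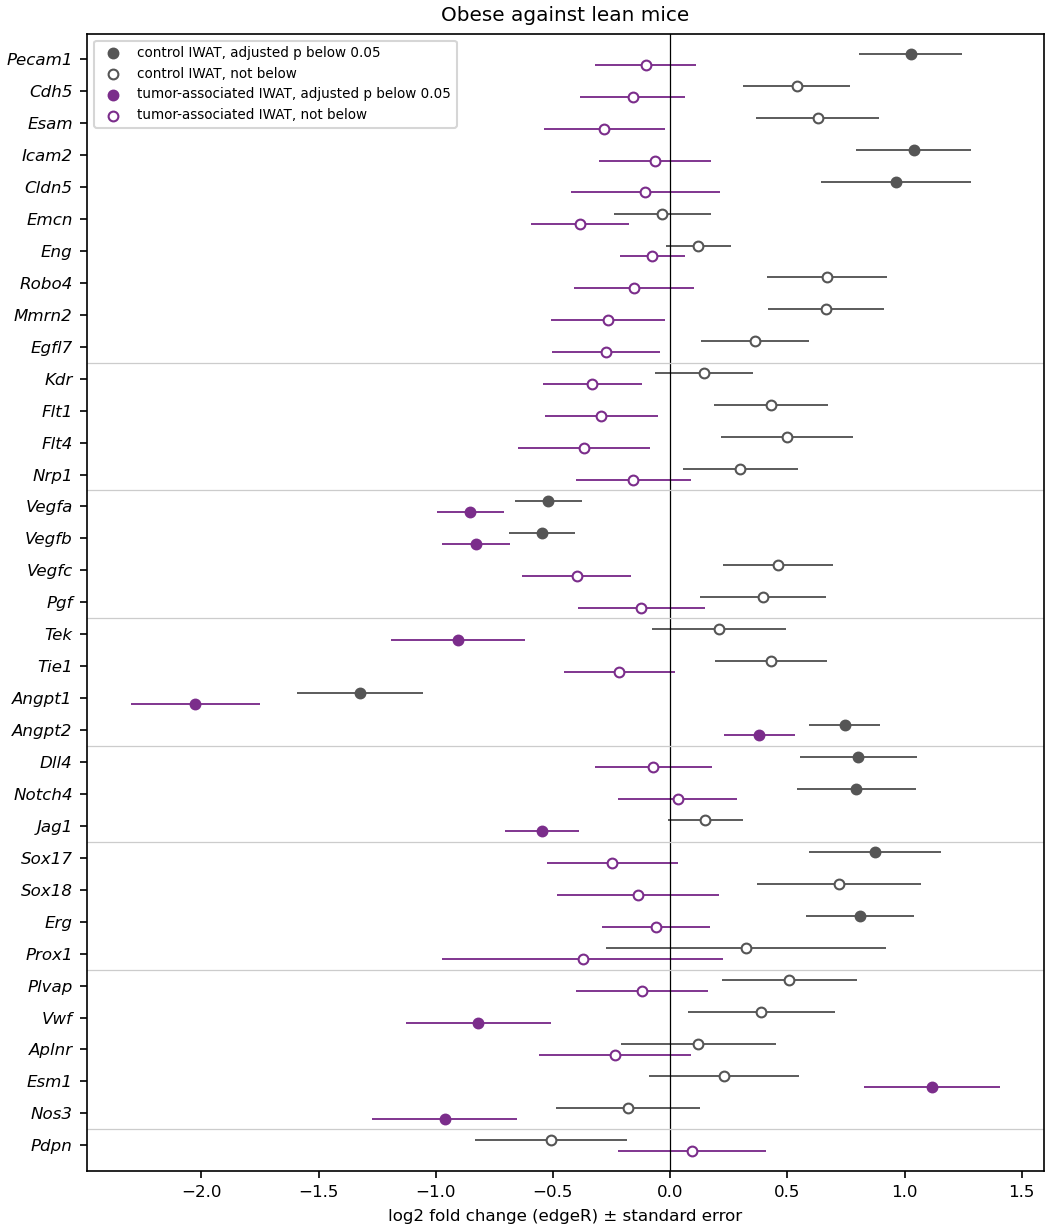
Log2 fold change of obese over lean mice for each of the 35 genes by role, in control and in tumor-associated pads, with bars of 1 SE and filled symbols at an adjusted p under 0.05. Control pad values lie above 0 for 29 genes and tumor-associated values below 0 for 31, and Angpt1 lies farthest below 0 in both.

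The balance of the angiopoietins was followed as log2 of the Angpt2 over the Angpt1 count within a library, which is independent of library scaling but not corrected for gene length, so that only its changes are read. In control pads its mean was -1.50 for lean and 0.57 for obese mice, and in tumor-associated pads -1.06 and 1.44. The highest lean library in either pad reached -0.39, and the lowest obese library 0.24, so that lean and obese libraries did not overlap in either pad.

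From the control to the tumor-associated pad the ratio changed by 0.45 ± 0.595 (SD, 5 mice) in lean mice, higher in 3 of 5 (two-sided exact permutation test, p = 0.25, adjusted p = 0.375 over 3 tests), where 0.0625 is the smallest p that 5 pairs allow. In obese mice it changed by 0.87 ± 1.00 (SD, 6 mice) and was higher in 5 of 6 (exact permutation p = 0.0938, adjusted p = 0.281, with 0.0312 as the smallest p that 6 pairs allow). The difference between the diets was 0.42 (exact permutation p = 0.463, adjusted p = 0.463). In each diet the mean change was smaller than its SD, and none of the tests called a change. In lean mice even the smallest possible p lies above the threshold, so that test could not have called one. In obese mice 6 pairs leave little room below the threshold before adjustment. With the p-values of the other tests as they were, adjustment over 3 tests would have put even the smallest p above it. These tests therefore do not decide whether the ratio changed with the tumor.

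**Figure D5:**
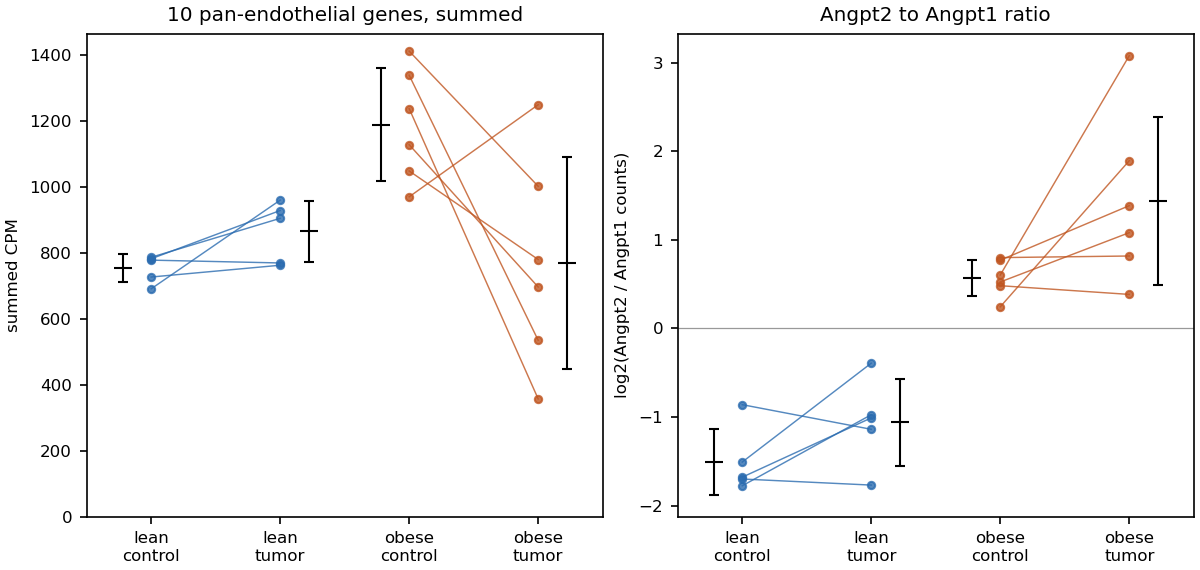
Left, summed CPM of the 10 pan-endothelial genes, and right, log2 of the Angpt2 to Angpt1 count ratio, in each of the 22 libraries by group, with lines joining the 2 pads of 1 mouse and black bars at the mean ± SD. The sum is lowest in the tumor-associated pad of obese mouse 4 (357 CPM) and stays high in that of mouse 1 (1248 CPM), and the ratio is below 0 in all lean and above 0 in all obese libraries.

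Further vascular genes, outside the 35, gave the following counts. In obese tumor-associated IWAT 15 of 23 other endothelial genes fell and 0 rose (median -0.85), and all 8 genes of fat capillaries fell (median -1.16). Of 12 mural cell genes 8 fell, among them Des (-1.17), the channel subunit Abcc9 (-1.14) and the receptor Notch3 (-1.11), so genes of the cells around the endothelium fell as well. In lean mice edgeR called 1 of the 23, 0 of the 8 and 0 of the 12, with 3, 0 and 0 at an unadjusted p under 0.05, and DESeq2 called 1, 0 and 0. Beside them stand 26.8% of all genes higher and 27.7% lower in obese mice.

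For the lists that follow, the shares of all genes called were again 26.8% higher and 27.7% lower in obese mice. In lean mice they were 3.27% higher and 0.913% lower. Arterial genes were mixed in obese mice, with 1 of 7 higher, the netrin receptor Unc5b (1.94), and 3 lower, including the Notch target Hey1 (-0.87) and the ligand Efnb2 (-0.80). Of 9 tip cell genes 3 fell, Trp53i11 (-1.26) and the basement membrane genes Nid2 (-0.78) and Col4a2 (-0.55), while 1 rose in lean mice, the vasodilator Adm (1.23). Of 7 genes of venous and activated endothelium 1 was higher and 1 lower. In lean mice 0 of the 7 arterial and 0 of the 7 venous genes were called by edgeR (1 and 4 at an unadjusted p under 0.05, 0 and 1 called by DESeq2). Lymphatic genes rose for 2 of 6 in each diet, Lyve1 (1.84 in lean, 2.03 in obese) and the factor Maf (0.89 and 0.84), both also made by macrophages, and Ccl21a was at 0 in every library.

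Of 12 hypoxia response genes 6 rose and 2 fell in obese tumor-associated IWAT, led by the glucose transporter Slc2a1 (1.88), the oxygen sensor Egln3 (1.88) and carbonic anhydrase Car9 (1.78), and 0 were called in lean mice (3 at an unadjusted p under 0.05 in edgeR, 1 called by DESeq2). Vegfa, itself a hypoxia target, fell in the same libraries. Other angiogenic ligands fell for 5 of 11, with Lep (-1.71), Fgf1 (-1.30) and Mdk (-1.01) as the largest, and of 10 angiogenesis inhibitors 3 rose and 1 fell, with Cxcl10 (2.92), Cxcl9 (1.15) and Timp3 (-1.11). In lean mice 0 of the 11 and 0 of the 10 were called, with 1 and 2 at an unadjusted p under 0.05 in edgeR and 0 called by DESeq2. Beside the counts in obese mice stand 26.8% of all genes higher and 27.7% lower.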

How the data were processed

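Ribosome-depleted RNA was sequenced from 22 IWAT samples of 11 mice. The authors trimmed reads with prinseq, checked them with FastQC, aligned them with STAR 2.4.0f to mm10 and counted with HTSeq, and the deposited values are raw counts per gene, 5759775 to 8598108 per library. Annotation release and strand setting are not given in the sources used here. The 5 lines that name no gene held 57.0 to 65.9% of each table column and were left out.

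Groups followed the labels. The counts were tested with edgeR 4.0.16 (R 4.3.3, quasi-likelihood, TMM, filterByExpr, 4 groups in 1 fit, Benjamini-Hochberg over 14458 genes, adjusted p under 0.05), which compares mean levels and leaves counting error within the spread between mice. P-values are two-sided. Each mouse is 1 replicate within a group. The main fit held no term for the mouse, so it treated the 2 pads of a mouse as independent. Alternatives were DESeq2 1.42.0, other scalings and filters, fits of the compared groups only, a block for the mouse, leaving out each library and, chosen after seeing the data, leaving out lymph node or high proliferation libraries. Scripts were tested on simulated data. The 2 pads of a mouse come from the same animal: their deviations from the group means correlated with a median of 0.51 (0.11 to 0.63, 5 of 5 above 0.1) in lean and 0.17 (-0.07 to 0.64, 4 of 6) in obese mice, against -0.12 and -0.07 for other pairs.

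The members and all gene lists were chosen with earlier results of these data known. Values are printed for up to 3 called members of each role with the smallest p in either tumor comparison. Members called in the difference and Pecam1, Cdh5, Kdr, Vegfa, Angpt2, Esm1 and Prox1 are added. For obese pads these values are the range and median, and for lean pads the values per library of part of these genes. Of other lists, up to 3 called genes with the largest change are named. Gene lengths and overlaps are from GRCm38, promoters from RefSeq. The ratio used a prior count of 2 and exact permutation tests over mice.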

Additional observations from a re-analysis of the deposited data

Results flagged for a closer look

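The change of Pecam1 from control to tumor-associated IWAT differed between the diets by -1.131 on the log2 scale (obese minus lean, edgeR adjusted p = 0.0463), higher in 5 of 5 lean and lower in 5 of 6 obese mice. The call was kept in 6 of the 22 fits with 1 library left out.

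In 5 of 144 sets of replicates examined (35 genes and the ratio, in 4 groups each), 1 library stood apart from the rest of its group by the Dixon criterion, where chance gives about 1 in 20. In lean control IWAT these were Icam2 in mouse 0, the lowest at 5.226 CPM, Flt1 in mouse 9, the highest at 94.42 CPM, Notch4 in mouse 9, the highest at 40.01 CPM, and Aplnr in mouse 2, the highest at 57.03 CPM. In obese tumor-associated IWAT it was Pdpn in mouse 4, the lowest at 7.847 CPM, in the library that also held the least adipocyte RNA and the most proliferation RNA.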

How the results depend on the processing

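No called member changed sign in any alternative run. In lean mice the count of called members (3) was 1 without a filter, 1 with at least 10 counts in every library, 10 with the groups compared alone, 8 without the high proliferation libraries, and 0 to 6 with 1 library left out. It was 4 with DESeq2 (2 higher, 2 lower), and 2 (1 higher, 1 lower) with relative log expression or upper quartile scaling. In obese mice (26) it was 16 with the groups compared alone (without Angpt1, Cdh5, Egfl7, Eng, Flt1, Flt4, Icam2, Tek, Tie1 and Vegfc), 15 without the high proliferation libraries and 20 to 29 with 1 library left out. Between control pads (11) it was 7 with upper quartile scaling, 22 with the groups compared alone (adding Cdh5, Esam, Flt1, Flt4, Mmrn2, Pdpn, Plvap, Robo4, Tie1, Vegfc and Vwf), 19 without the high proliferation libraries and 7 to 16 with 1 library left out, and between tumor-associated pads (9) 7 to 12. Tek, Vwf and Angpt2 were not called there with the groups compared alone. Esm1 and Prox1 were not among the genes with at least 10 counts in every library. For the difference of the changes (1) it was 4 with DESeq2 (Pecam1, Icam2, Jag1 and Sox17), 0 without a filter, 2 without the lymph node libraries, 0 without the high proliferation libraries and 0 to 17 with 1 library left out. Shares of all genes called with the groups compared alone or with libraries left out are not given here. The cause of these shifts was not tested.

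With the mouse as a replicate block, 1 member was called in lean mice, 27 in obese mice and 1 for the difference. The block gained Mmrn2 in obese mice, lost Esm1 and Vegfb in lean mice and changed no other member's call. It cannot be fitted between diets, since no mouse had both. The Angpt2 to Angpt1 changes were 0.4481 (adjusted p = 0.2381) in lean and 0.8693 (adjusted p = 0.0909) in obese mice without pairing by exact permutation, and with 1 mouse left out 0.2812 to 0.6297, 0.5482 to 1.0628 and, for their difference, 0.1001 to 0.6147.

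Over all genes, calls in lean mice split into 473 higher and 132 lower, but 382 and 199 with upper quartile scaling, and between control pads into 1380 and 1088, but 1068 and 1446. Of the other lists, venous genes in lean mice had 1 call with DESeq2 (0 in the main test), hypoxia genes 1 with DESeq2 and 1 with upper quartile scaling (0), proliferation genes 4 and 0 (1), and in obese mice skeletal muscle genes 2 with upper quartile scaling (1) and T cell genes 1 with DESeq2 (0). Low counts limit Prox1 and Esm1 most.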
